A study of Homo sapiens with 6 samples.

Results

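The genes described here are the SR and hnRNP splicing factors, the members of a pair of families of nuclear RNA-binding proteins. They were chosen by name and gene type, as the protein-coding rows whose symbol begins with SRSF and a digit or with HNRNP. This gave 34 of the 28565 genes in the count table, 12 SRSF and 22 HNRNP, and the rule itself uses no expression value. The 6 RNA-seq libraries are of HK-2, a line of human renal proximal tubule epithelium immortalised with papillomavirus genes, and all 6 had been transfected with a plasmid that overexpresses a noncoding transcript called LncR2 in the titles. The groups are LncR2 cells with 24 h of cisplatin, a platinum drug that crosslinks DNA (3 libraries), and LncR2 cells with 0 h (3 libraries). Negative-control plasmid cells were not analysed here, so the comparison is of 24 h with 0 h within plasmid-carrying cells, and cisplatin cannot be told apart from time after transfection.

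SR proteins carry RNA-recognition motifs and a tail rich in arginine-serine repeats. They bind exonic enhancers and recruit the spliceosome, and their activity is set by phosphorylation of that tail by the SRPK and CLK kinases. hnRNP proteins coat nascent transcripts and often repress exons, so that the balance of the families at an exon is a classical determinant of alternative splicing. Genes of both families limit their own protein output by splicing their mRNA into forms with a premature stop, which nonsense-mediated decay removes. A count per gene adds such forms to the productive mRNA, and the values below do not separate them.

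The 24 h libraries held 6022268 to 7248754 counts, and the 0 h libraries 5028881 to 5844246. Levels are CPM, the count of a gene relative to the library total, scaled by TMM, which sets libraries to the same level for the typical gene, and a fold change is the log2 ratio of 24 h to 0 h ± the standard error of edgeR's quasi-likelihood model with 3 libraries per group. A gene was called at a Benjamini-Hochberg adjusted p under 0.05 over all 13389 genes tested, and 2.94% of them were called, 0.866% higher and 2.08% lower. The epithelial keratins KRT8 and KRT18, the renal transcription factor PAX8 and the cadherin CDH2 were well above 0 in all 6 libraries, whereas the mature tubule genes AQP1, CUBN and SLC34A1 and the epithelial cadherin CDH1 had at most 6 counts in any library. The endothelial markers CDH5, PECAM1 and VWF summed to at most 0.434 CPM at 24 h and 0.399 CPM at 0 h. Fibroblast markers summed to between 16.6 and 20.5 CPM at 24 h and between 15.8 and 17.4 CPM at 0 h, mostly LUM (75 to 86 counts at 24 h and 41 to 58 at 0 h) and COL1A1 (29 to 36 counts at 24 h and 21 to 33 at 0 h). Their part in the results was not tested. In bulk RNA, a change in cell number and a change in RNA per cell cannot be told apart. Nothing in the labels ties the 3 libraries of a time to separate cultures, and the design text speaks of 2 biological replicates per treatment, so p-values measure only the spread between these libraries, which may be technical. Replicate 3 was the highest 0 h library in 9 of the 12 SRSF genes and 16 of the 21 HNRNP genes tested. The same share over all genes was not counted, so this is not read as a trait of the families. Results that turn on that library are given without it.

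The families differ in features that the name rule did not use. In GENCODE 29, 12 of 12 SRSF genes and 14 of 22 HNRNP genes (63.6%) have at least 1 transcript annotated as a target of nonsense-mediated decay, beside 43.8% of 11956 protein-coding genes tested. Transcripts with a retained intron are annotated for 9 of 12 SRSF genes and 14 of 22 HNRNP genes, beside 57.0% of those protein-coding genes. SRSF7 has 6 decay transcripts, HNRNPU has 9 and HNRNPH1, with 50 transcripts in all, has 4. HNRNPUL2-BSCL2, a readthrough counted among the 14 HNRNP genes, has 1 transcript, which is annotated for decay. Promoter sequences were found in RefSeq (GRCh38.p14) for 32 members, all but SRSF2 and HNRNPA1. In the 250 bases before the start, on either strand, CCAAT occurs in 2 of 11 SRSF promoters and 14 of 21 HNRNP promoters, beside 33.0% of all 27303 promoters of any gene type. GGGCGG occurs in 4 of 11 SRSF and 17 of 21 HNRNP promoters, beside 42.3%, CACGTG in 0 and 6, beside 6.49%, TATAAA in 2 and 3, beside 11.1%, and CCGGAA in 2 and 5, beside 14.8%. These are matches of letters and not sites, matches of different motifs may overlap and were counted separately, and HNRNPUL2 and its readthrough start close together. The median GC content was 61.6% in SRSF and 66.0% in HNRNP promoters, beside 58.0% in all. All promoters include those of noncoding and unexpressed genes, and the background changes the reading. In the promoters of 9174 protein-coding genes tested, GGGCGG occurs in 69.1%, CCAAT in 35.6%, CCGGAA in 26.2%, CACGTG in 9.31% and TATAAA in 4.80%, and the median GC content is 65.2%. Against these, HNRNP promoters are near the background in GC content and nearer to it in GGGCGG. SRSF promoters are below it in both. CCGGAA is near it in HNRNP promoters (23.8%), and 2 of 11 SRSF promoters (18.2%) are too few to place against it. CCAAT (66.7%) and CACGTG (28.6%) are above it in HNRNP promoters. In SRSF promoters CCAAT (2 of 11) and CACGTG (0 of 11) are below it, on few promoters. TATAAA is above it in both families (18.2% of SRSF and 14.3% of HNRNP promoters), but only on 2 of 11 and 3 of 21 promoters. Only 76.7% of the protein-coding genes tested have an entry, so that a comparison with them is void as a check and is given as a description.

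The 4 promoters printed here belong to the member of each family with an entry whose p was smallest among those higher, and among those lower, at 24 h. They are shown 5′ to 3′ for the 250 bases before the start so that the motif contrast can be seen. Capitals mark CCAAT or GGGCGG on either strand.
SRSF5 promoter, chr14:69766892-69767141, plus strand: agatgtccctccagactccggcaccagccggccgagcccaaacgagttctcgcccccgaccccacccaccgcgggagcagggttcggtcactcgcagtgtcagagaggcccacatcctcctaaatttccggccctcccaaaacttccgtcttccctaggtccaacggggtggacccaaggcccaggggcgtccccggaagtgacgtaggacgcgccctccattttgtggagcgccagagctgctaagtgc
SRSF4 promoter, chr1:29181901-29182150, minus strand: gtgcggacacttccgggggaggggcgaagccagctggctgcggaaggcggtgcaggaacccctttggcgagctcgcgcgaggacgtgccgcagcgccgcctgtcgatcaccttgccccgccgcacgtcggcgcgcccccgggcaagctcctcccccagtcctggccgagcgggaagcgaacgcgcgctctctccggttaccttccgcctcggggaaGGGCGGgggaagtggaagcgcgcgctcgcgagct
HNRNPAB promoter, chr5:178204283-178204532, plus strand: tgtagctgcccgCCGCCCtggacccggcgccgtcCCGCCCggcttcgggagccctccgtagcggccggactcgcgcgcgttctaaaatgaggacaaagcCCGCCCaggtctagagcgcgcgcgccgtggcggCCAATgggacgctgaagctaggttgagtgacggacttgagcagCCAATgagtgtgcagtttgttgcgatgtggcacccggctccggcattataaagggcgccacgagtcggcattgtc
HNRNPF promoter, chr10:43408858-43409107, minus strand: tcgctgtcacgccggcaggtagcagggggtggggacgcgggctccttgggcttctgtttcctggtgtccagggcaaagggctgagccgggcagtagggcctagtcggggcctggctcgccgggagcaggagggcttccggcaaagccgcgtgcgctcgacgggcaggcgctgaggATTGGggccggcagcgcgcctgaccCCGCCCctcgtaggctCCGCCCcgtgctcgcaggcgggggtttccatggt
SRSF5 has 0 of either motif and SRSF4 has 1 GGGCGG. HNRNPAB has 2 CCAAT and 3 GGGCGG, and HNRNPF has 1 CCAAT and 2 GGGCGG. SRSF5 and HNRNPAB were on the higher side at 24 h and SRSF4 and HNRNPF on the lower.

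Per length (deposited FPKM, reads scaled to gene length and library total), members ranged widely in level, with hnRNP genes in the first places at both times. HNRNPA2B1, an exon-silencing and mRNA-transport factor, was highest, at 171 ± 16.3 FPKM at 24 h and 169 ± 22.9 FPKM at 0 h (mean ± SD, n = 3 each). HNRNPK, a binder of C-rich RNA, followed at 148 ± 19.0 FPKM at 24 h and 126 ± 13.1 FPKM at 0 h. SRSF9, a short SR protein related to SRSF1, was the highest SRSF gene, at 114 ± 7.16 FPKM at 24 h and 86.2 ± 5.90 FPKM at 0 h. Of the SRSF genes, SRSF1, the founding SR protein, came next at 53.5 ± 7.14 FPKM at 24 h and 49.3 ± 5.29 FPKM at 0 h. The median member was at 23.5 FPKM for SRSF and 37.1 FPKM for HNRNP at 24 h, and at 22.9 FPKM for SRSF and 30.9 FPKM for HNRNP at 0 h. At the low end, SRSF12, an SR-like repressor, was at 0.853 ± 0.135 FPKM at 24 h and 0.580 ± 0.286 FPKM at 0 h, and HNRNPA1L2, an intronless copy of HNRNPA1, was below both. Of the 33 pairs of neighbours in the order of mean FPKM, 23 had overlapping ranges over the 3 libraries at 24 h and also 23 at 0 h, so the order is loose in its middle. HNRNPA2B1 and HNRNPK overlapped at 24 h but not at 0 h. FPKM is used here for comparing genes within a time, because the authors' library totals differ from TMM between the times.

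**Figure D1:**
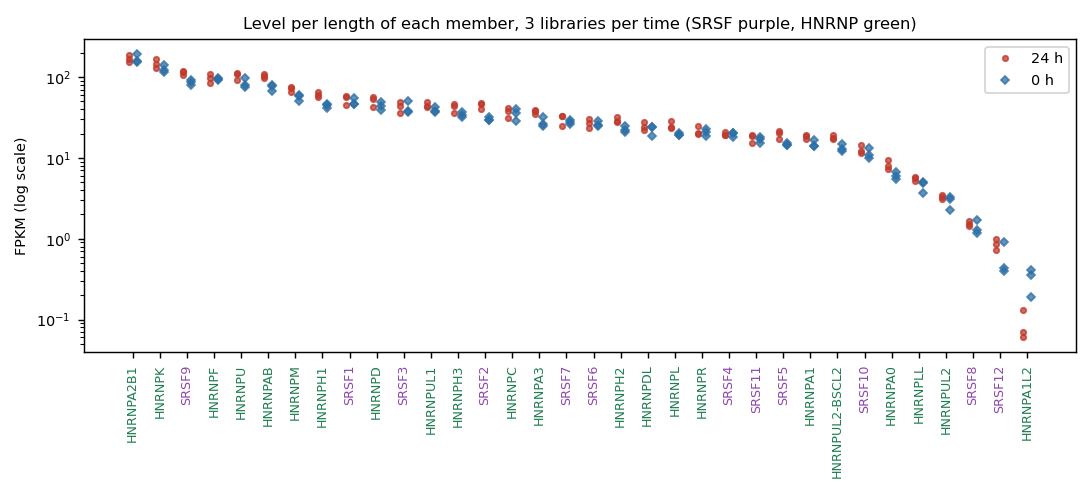
Deposited FPKM of each of the 34 members (log axis) in the 3 libraries at 24 h (circles) and the 3 at 0 h (diamonds), sorted by the mean of all 6. HNRNPA2B1 is at the high end and HNRNPA1L2 at the low end, and most neighbours overlap.

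HNRNPA1, a well-known exon silencer, was at 18.2 ± 1.11 FPKM at 24 h and 14.96 ± 1.59 FPKM at 0 h (mean ± SD, n = 3 each), under HNRNPA2B1 in every library. Of the 150-base windows (the read length) in its longest coding transcript in GENCODE 29, 49.9% occur letter for letter in transcripts of other genes, 5 of them in all. The same share was 47.3% for SRSF1, all with an overlapping gene model, 44.1% for HNRNPUL2, a relative of HNRNPU, 96.1% for HNRNPUL2-BSCL2, a readthrough of HNRNPUL2 into its neighbour, 22.2% for HNRNPA3 and 20.0% for HNRNPL. How the authors counted reads that map to several genes is not given in the sources used here, so the levels of these members are uncertain, and the part of shared sequence in them was not tested. For HNRNPUL2-BSCL2 the transcript used was its only 1, annotated as a target of nonsense-mediated decay and not as protein coding. No window was shared in 24 members, among them SRSF2, SRSF4, SRSF5, HNRNPAB, HNRNPH1, HNRNPF and HNRNPA2B1. HNRNPH1 and HNRNPH2, the closest pair of tested paralogs, had coding sequences 83.5% identical.

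With TMM scaling, the members of both families were close to their 0 h levels after 24 h of cisplatin. So was the typical gene, by the median size of change given below. Of the 33 members tested, 0 were called by edgeR in either direction, which is near the 2.94% of all genes called. With the library totals implied by the FPKM, 3 SRSF and 8 HNRNP members of the 33 were called as higher. Of all 13389 genes tested, 2354 were called higher on that scale. 5 members had an unadjusted p under 0.05 (15.2%, against 18.1% of all genes tested): SRSF2, HNRNPAB and HNRNPH1, which were higher, and SRSF4 and HNRNPF, which were lower. DESeq2 called 334 genes in all and 1 member, SRSF2, as higher. Log2 fold changes ran from -0.23 to 0.33. The 95% interval of the fold change lay within 1.5-fold in both directions for 32 of the 33 and within 1 log2 unit for all 33. Among all 13389 genes tested, 8236 had an interval that lay within 1.5-fold. The median standard error was 0.106 in the families and 0.144 in all genes tested, so the members' intervals are narrower. The median size of change, regardless of direction, was 0.16 on the log2 scale in the families and 0.16 in all genes tested. The member that did not pass the filter on low counts was HNRNPA1L2, with 4, 2 and 2 counts at 24 h and 11, 5 and 11 counts at 0 h. Its groups did not overlap, and without the filter edgeR called it as lower. Of its 150-base windows, 17.7% occur in transcripts of other genes, mostly HNRNPA1.

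**Figure D2:**
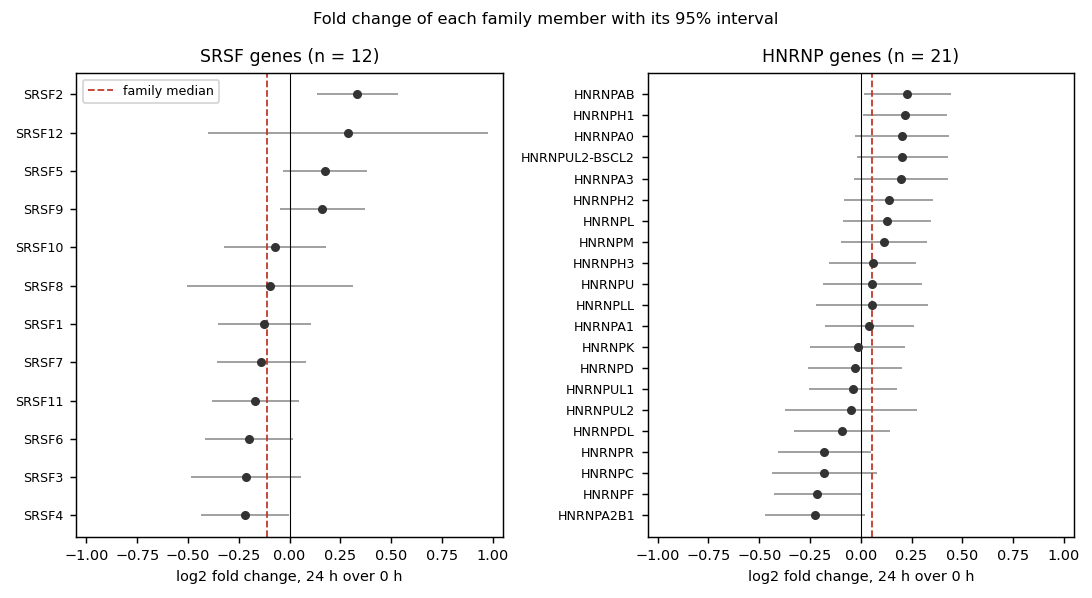
Log2 fold change of 24 h over 0 h for each tested SRSF gene (left) and HNRNP gene (right), with 95% intervals from edgeR's quasi-likelihood model; the dashed line is the family median. Intervals lie within 1 log2 unit throughout, and that of SRSF12, the tested member with the fewest counts, is widest.

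The families differed little in their overall position. Of the 12 SRSF genes tested, 4 had a fold change above 0 and 8 below, with a median of -0.11, and of the 21 HNRNP genes 12 were above and 9 below, with a median of 0.06. The median over all genes tested was -0.0016 and over protein-coding genes 0.0075. Counts of all SRSF genes made up 0.165 ± 0.00741% of each library at 24 h and 0.170 ± 0.0117% at 0 h, and those of all HNRNP genes 0.635 ± 0.0241% at 24 h and 0.641 ± 0.0442% at 0 h (mean ± SD, n = 3 each). A contrast taken inside each library, the mean log2 CPM of tested SRSF genes minus that of tested HNRNP genes, does not depend on how libraries are scaled. It was -1.26, -1.24 and -1.25 in replicates 1, 2 and 3 at 24 h, and -1.21, -1.25 and -1.15 at 0 h. The groups overlap, because replicate 2 at 0 h lies within the 24 h values, and replicate 3 at 0 h is the highest. No test is given for a score over chosen members. The gap between the family medians (SRSF minus HNRNP) was -0.17, and it was -0.17 without replicate 3 at 0 h. It was -0.11 without replicate 1 at 24 h and -0.22 without both libraries numbered 3. The contrast inside each library, a different measure, averaged -1.25 at 24 h and -1.20 at 0 h.

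Among the SR proteins that promote exon inclusion, SRSF2 (SC35), a component of nuclear speckles, was the member with the smallest p. It had 194, 204 and 194 CPM at 24 h and 153, 151 and 165 CPM at 0 h. Every 24 h library was above every 0 h library. The log2 fold change was 0.33 ± 0.09, with an interval from 0.13 to 0.54, which missed the threshold in edgeR (Benjamini-Hochberg adjusted p = 0.0714, from 0.00287 to 0.306 over 19 alternatives). Without replicate 3 at 0 h it was 0.38 and was called (adjusted p = 0.0117). That fit called 1497 of all genes, against 394 with all 6 libraries. SRSF2 (ENSG00000161547.14) lies on chromosome 17 from 76734115 to 76737374 in GENCODE 29 on GRCh38, where 1106 of its exonic bases lie opposite exons of MFSD11. The use of strand in counting is not given in the sources used here, so reads of such partners may be pooled. SRSF2, HNRNPA2B1 and HNRNPU were counted in a version other than that of GENCODE 29, so their overlaps may differ. SRSF5, which carries a long arginine-serine tail, had 91.4, 98.1 and 103 CPM at 24 h and 86.3, 84.1 and 89.3 CPM at 0 h. SRSF9 had 207, 211 and 198 CPM at 24 h and 195, 168 and 188 CPM at 0 h. Both also had groups that did not overlap, with fold changes of 0.17 ± 0.10 and 0.16 ± 0.10 that did not pass (adjusted p = 0.372 and 0.415). Without replicate 2 at 0 h that of SRSF9 was 0.097. SRSF9 shares 1729 exonic bases with GATC on the opposite strand. SRSF1 had 236, 266 and 269 CPM at 24 h and 266, 258 and 316 CPM at 0 h, and its groups overlap.

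SRSF4, SRSF6 and SRSF3 had the lowest fold changes of their family. SRSF4, the longest of the classical SR proteins, had 74.1, 68.2 and 72.1 CPM at 24 h and 87.5, 85.7 and 76.4 CPM at 0 h, a fold change of -0.22 ± 0.10 (adjusted p = 0.271). SRSF6, a close relative of SRSF4 and SRSF5, had 164, 173 and 189 CPM at 24 h and 191, 192 and 221 CPM at 0 h, a fold change of -0.20 ± 0.10 (adjusted p = 0.321) that was -0.12 without replicate 3 at 0 h. In both genes each 24 h library was below each 0 h library, and neither passed. SRSF3, the smallest SR protein and an adaptor of mRNA export, had 256, 281 and 307 CPM at 24 h and 296, 285 and 398 CPM at 0 h. Its groups overlap, and its fold change of -0.21 ± 0.13 was -0.04 without replicate 3 at 0 h. SRSF12 had 35, 31 and 27 counts at 24 h and 13, 14 and 33 counts at 0 h, so that replicate 3 at 0 h stood with the 24 h libraries. Its fold change of 0.29 ± 0.33 was 0.79 without that library, 0.089 without replicate 1 at 0 h, 0.10 without replicate 2 at 0 h and 0.11 without replicate 1 at 24 h. The 5 remaining fold changes (SRSF1, SRSF7, SRSF8, SRSF10 and SRSF11) were between -0.17 and -0.07, and the groups overlapped in each.

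**Figure D3:**
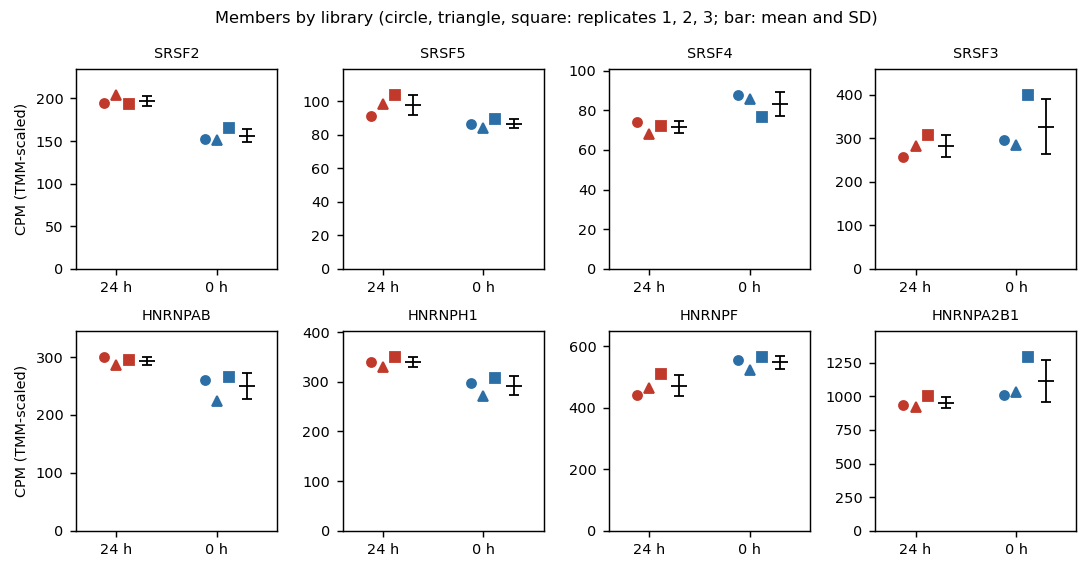
CPM of 8 members in each library at 24 h (left) and 0 h (right), with the mean and SD beside them; axes start at 0. In SRSF2, SRSF5, HNRNPAB and HNRNPH1 the 24 h libraries are all higher, in SRSF4, HNRNPF and HNRNPA2B1 all lower, and in SRSF3 the groups overlap.

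Among hnRNP proteins, HNRNPAB, a binder of AU-rich RNA, had the largest positive fold change, 0.23 ± 0.10, with an interval from 0.02 to 0.44 (adjusted p = 0.235). It had 299.6, 286 and 295 CPM at 24 h and 260.2, 225 and 266 CPM at 0 h, and the groups do not overlap. HNRNPAB (ENSG00000197451.10) lies on chromosome 5 from 178204507 to 178211163. HNRNPH1, which binds G-tracts near splice sites, had 340.5, 329.7 and 349 CPM at 24 h and 297, 272 and 308 CPM at 0 h. Its fold change was 0.22 ± 0.10 (adjusted p = 0.252), and its groups do not overlap. HNRNPF, which binds the same kind of G-tract, had 443, 464 and 509 CPM at 24 h and 555, 523 and 564 CPM at 0 h. Every 24 h library was lower, with a fold change of -0.21 ± 0.10 (adjusted p = 0.273). HNRNPH2, the paralog of HNRNPH1, was at 0.14 ± 0.10 with overlapping groups.

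The A and C proteins form the core of the hnRNP particle. HNRNPA2B1 had 938, 919 and 999 CPM at 24 h and 1013, 1035 and 1290.5 CPM at 0 h, so that the 24 h libraries were all lower. Its fold change of -0.23 ± 0.12 did not pass (adjusted p = 0.320) and was -0.10 without replicate 3 at 0 h. HNRNPA2B1 lies on chromosome 7 from 26173057 to 26201529, where 368 of its exonic bases lie opposite exons of CBX3. HNRNPC, which binds U-tracts, had 314, 352 and 368 CPM at 24 h and 323, 394 and 454 CPM at 0 h, with overlapping groups and a fold change of -0.18 ± 0.12, which was -0.05 without replicate 3 at 0 h. HNRNPA0, an intronless A-type protein, had 104, 120.3 and 99.7 CPM at 24 h and 103, 92.1 and 86.0 CPM at 0 h, with overlapping groups and a fold change of 0.21 ± 0.11 (adjusted p = 0.341) that was 0.12 without replicate 2 at 24 h. HNRNPA3 had 342, 341 and 341 CPM at 24 h and 267, 279 and 346 CPM at 0 h. Its groups overlap through replicate 3 at 0 h. Without that library edgeR called HNRNPA3 as higher, in a fit that called 1497 of all genes. HNRNPK had 646, 646 and 733 CPM at 24 h and 633, 647 and 766 CPM at 0 h, a fold change of -0.01 ± 0.11 with an interval from -0.25 to 0.22. HNRNPU, the nuclear matrix protein SAF-A, was likewise at 0.06 ± 0.12. In GENCODE 29 it shares 3502 exonic bases with COX20 on the opposite strand. The counted version of HNRNPU is another, so whether reads of COX20 are pooled with its own is not known.

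In all, the groups did not overlap in 6 tested members with higher 24 h libraries (SRSF2, SRSF5, SRSF9, HNRNPAB, HNRNPH1 and HNRNPM) and in 4 with lower ones (SRSF4, SRSF6, HNRNPA2B1 and HNRNPF). This is 18.2% and 12.1% of 33, beside 10.9% and 11.7% of all genes tested. Ratios of members at opposite ends of each family, chosen after their values were seen and given without a test, remove the scaling of libraries. Since 1 member of each pair had all its 24 h libraries higher and the other all lower, the choice itself keeps the times apart. The FPKM of SRSF2 over SRSF4 was 2.14, 2.44 and 2.19 at 24 h and 1.42, 1.44 and 1.77 at 0 h. The FPKM of HNRNPAB over HNRNPA2B1 was 0.628, 0.613 and 0.581 at 24 h and 0.505, 0.427 and 0.405 at 0 h.

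**Figure D4:**
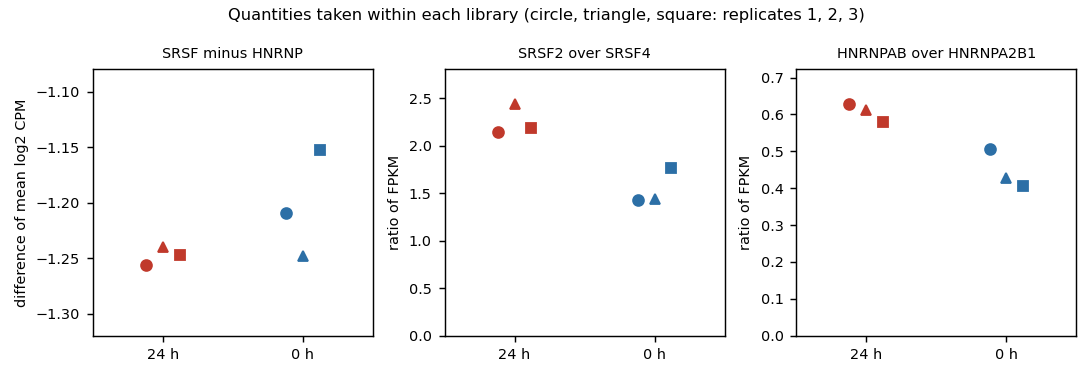
Quantities computed inside each library at 24 h (left) and 0 h (right): the mean log2 CPM of SRSF minus HNRNP genes (axis not from 0), and FPKM ratios of SRSF2 over SRSF4 and of HNRNPAB over HNRNPA2B1 (axes from 0). The family difference overlaps between the times; the ratios do not, which the choice of their members fixes.

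The directions below 0 hold relative to the typical gene. When libraries were scaled instead by the totals implied by the authors' FPKM, the median of all genes moved to 0.24 on the log2 scale. Of the 13389 genes tested, 2354 were then called higher and 195 lower, against 116 and 278 with TMM. With the FPKM totals the family medians were 0.13 for SRSF and 0.29 for HNRNP. Of the 33 members tested, 11 were called as higher (SRSF2, SRSF5, SRSF9 and 8 HNRNP genes) and 0 as lower. The fold changes of SRSF4, SRSF3, SRSF6, HNRNPA2B1 and HNRNPF were between 0.014 and 0.043 with those totals. Relative to the median of all genes, SRSF stood at -0.11 and HNRNP at 0.06 under either scaling.

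Of the 124 tested genes in 6 other lists of the splicing pathway, 1 rose and 1 fell, a share near the 2.94% of all genes called. With the FPKM totals 17 of the 124 were called as higher and 0 as lower, beside 2354 and 195 of all 13389 genes tested. Of 41 core spliceosome genes, PUF60, which helps to recognise the polypyrimidine tract, rose by 0.40 ± 0.10 on the log2 scale (Benjamini-Hochberg adjusted p = 0.0419 in edgeR), with 119, 133 and 123 CPM at 24 h and 102, 87.0 and 94.8 CPM at 0 h. SF3A2, of the U2 particle, was at 0.39 ± 0.12 (adjusted p = 0.109). Of 14 other splicing regulators, QKI, a STAR-family RNA-binding protein, fell by 0.38 ± 0.10 (adjusted p = 0.0446), with 182, 171 and 182 CPM at 24 h and 229, 222 and 244 CPM at 0 h. SFPQ, of paraspeckles, was at -0.21 ± 0.10, and 12 of that list's 14 fold changes were below 0, with a median of -0.12. Of all genes tested, 50.3% were below 0. The genes of a list share libraries, so the count is a description. With the FPKM totals SFPQ was at 0.026 and the median of all genes at 0.24. The calls of PUF60 and QKI were lost without replicate 2 at 0 h or any single library at 24 h. That of QKI was also lost without replicate 1 at 0 h. QKI was likewise not called with no filter on low counts (adjusted p = 0.109) or with the FPKM totals, where its fold change was -0.14 (adjusted p = 0.427). None of 20 SR-related proteins, 11 kinases, phosphatases and importers of SR proteins, 23 hnRNP proteins and relatives under other symbols or 15 decay and exon-junction genes was called by edgeR. At an unadjusted p under 0.05 these lists held 1, 1, 2 and 1 genes, and DESeq2 also called 0 of them. Without replicate 3 at 0 h, where 1497 of all genes were called, edgeR called SMG6, a nuclease of nonsense-mediated decay, as lower (-0.63, adjusted p = 0.000505). In that fit it also called PTBP3, a polypyrimidine-tract binder, as higher (0.39, adjusted p = 0.0128). The medians of these lists, in the order given, were -0.04, 0.02, -0.0066 and -0.03. The smallest p-values in these lists were those of PNISR (-0.23 ± 0.10), U2AF1, which has a near-identical copy in the genome (0.47 ± 0.25), CLK3, a kinase of SR proteins (0.36 ± 0.11), DYRK1B (0.42 ± 0.21), KHDRBS1 (0.25 ± 0.09), PTBP3 (0.29 ± 0.11), SMG6 (-0.39 ± 0.18) and SMG9 (-0.25 ± 0.12).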

How the data were processed

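The deposited read counts are whole numbers per gene (28565 genes, 0 rows without a gene) and the deposited FPKM have 28561 genes, 1 column per library. TopHat2, bcl2fastq and edgeR and the build GRCh38 are named per the submitters' processing notes. Not given in the sources used here are the counter, the annotation and how strand and multi-mapped reads were treated. Per the labels' protocols, total RNA was rRNA-depleted and made into directional libraries, read as 150-nt pairs on an Illumina instrument.

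Counts were fitted with edgeR 4.0.16 (limma 3.58.1, R 4.3.3), glmQLFit and glmQLFTest, TMM, filterByExpr and no covariates, on all 6 libraries; the script was tested on simulated data. Alternatives were other scalings and filters, DESeq2 1.42.0, limma on log2(FPKM + 1) and log2(FPKM + 0.1), a block for the replicate number, and left-out libraries. Library totals implied by FPKM are the median of count over FPKM in 3579 genes with at least 300 counts. Intervals cover library spread and counting error.

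The naming rule for the members uses no values, but the families and the lists were chosen with earlier results of these data known. Values were given in full for called members, the 3 largest changes each way and the 3 highest FPKM in each family; in other lists, for called genes and the 2 smallest p-values. Values of further members were chosen after they were seen. All 34 members matched GENCODE 29 by identifier, 22 with the same version. Shared windows were sought letter for letter in GENCODE transcripts, sense strand only. Coding identity is edit distance over the longer sequence. Only 76.7% of protein-coding genes tested had a promoter entry, so the comparison of promoters with them is void as a check. Protein sequences were not used here.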

Additional observations from a re-analysis of the deposited data

How the results depend on the processing

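With RLE, upper-quartile or total-count scaling, the filter of at least 10 counts in 3 libraries, protein-coding genes alone or robust dispersion, 0 members were called, as with TMM, and every member named by the rule kept the sign of its fold change. DESeq2 called 334 genes and 1 SRSF gene, and it put HNRNPK at 0.0031. With no filter on low counts 740 genes, 1 SRSF gene and 1 HNRNP gene were called, and HNRNPK was at 0.03.

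With the FPKM denominators 2549 of the 13389 genes tested were called. Among them were 3 SRSF genes, 8 HNRNP genes and 17 genes of the other lists (all higher). The medians were 0.13 (SRSF) and 0.29 (HNRNP). Among genes named by the rule, the fold changes that turned positive were those of SRSF4 (0.017), SRSF3 (0.029), SRSF6 (0.043), SRSF1 (0.12), HNRNPA2B1 (0.014), HNRNPF (0.027), HNRNPC (0.064), HNRNPK (0.23), PNISR (0.0077) and SFPQ (0.026). Limma on log2(FPKM + 1) gave 1795 genes, 3 SRSF, 4 HNRNP and 14 other genes (all higher; QKI at -0.12, not called), medians of 0.10 and 0.27, and the same turns (0.017, 0.033, 0.036, 0.11, 0.018, 0.019, 0.065, 0.22, 0.0059 and 0.025 in that order). On log2(FPKM + 0.1) these were 1768, 3, 4 and 14, with medians of 0.13 and 0.29 and values of 0.018, 0.034, 0.037, 0.11, 0.018, 0.019, 0.067, 0.22, 0.0063 and 0.025. These settings differ from TMM by construction in the library totals.

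Leaving out 1 library gave 113 to 1497 called genes, 0 to 1 SRSF genes, 0 to 1 HNRNP genes and 0 to 4 genes of the other lists, with medians from -0.17 to -0.03 (SRSF) and from 0.012 to 0.14 (HNRNP), and HNRNPK from -0.084 to 0.081. The upper counts came from leaving out replicate 3 at 0 h (1497 genes, SRSF2 and HNRNPA3). Without both libraries numbered 3, 845 genes and, of the members, SRSF2 were called, SMG6 was at -0.59 (adjusted p = 0.00746), the HNRNP median was 0.13 and HNRNPK was at 0.013.

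With the replicate number as a block, 1698 genes, 1 SRSF gene (SRSF2, adjusted p = 0.00536), 1 HNRNP gene (HNRNPAB, adjusted p = 0.0443) and 7 genes of the other lists were called. Deviations from the group means of libraries with the same number correlated at 0.32, 0.016 and 0.55 for numbers 1, 2 and 3 over 11242 genes. Not every one is above 0.1, and the labels tie no number to a shared culture or day, so the pairing is not established; replicate 2 at 24 h correlated best with replicate 1 at 0 h (0.17). The cause of these changes was not tested. Counts of SRSF12, SRSF8 and HNRNPA1L2 limit what could be seen in them.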

Other observations

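The count table also holds 34 rows with SRSF or HNRNP symbols that are not protein coding, 33 of them pseudogenes. No pseudogene had more than 121 counts over the 6 libraries. That total was of HNRNPH1P1, whose 24 h libraries had 14, 21 and 14 counts, against 28, 22 and 22 in the 0 h libraries (log2 fold change -0.91 ± 0.30, Benjamini-Hochberg adjusted p = 0.116 in edgeR), the opposite sign to HNRNPH1. The remaining row is HNRNPU-AS1, an antisense gene beside HNRNPU, whose 24 h libraries had 270, 247 and 321 counts, against 289, 298 and 306 in the 0 h libraries. Averaging 41.4 ± 4.93 CPM after 24 h, against 56.7 ± 2.34 CPM at 0 h (SD, n = 3 each), it was at -0.45 ± 0.12. It narrowly missed the threshold (edgeR, adjusted p = 0.05003), with every 24 h library lower. HNRNPU was at 0.06 ± 0.12, and whether that value pools reads of COX20 is not known.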
